A study of Sus scrofa with 23 samples.

Results

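PLAC8 is the gene described here, across the macrophage cultures of a study of pigs. It was picked because its level spanned about 9 log2 units over the arrays, so its span and its levels by column are given as a description, with no test. Tests were run only between the labelled groups. Of 6765 genes with a named probe set on the array, PLAC8 is 1, and it has 1 probe set, annotated to RefSeq gene PLAC8 of the Sscrofa11.1 assembly.

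The study grew bone marrow-derived macrophages from 3 Large White x Landrace F1 pigs in recombinant human CSF1, the growth factor that turns marrow cells into macrophages. The labels give 6 arrays from unstimulated cells (0 h) and then 6, 6 and 5 arrays from cells kept for 2, 7 and 24 h with 100 ng/ml of lipopolysaccharide (LPS, a cell wall component of Gram-negative bacteria) from Salmonella enterica serotype minnesota Re 595. By the labels, 2 cultures of every pig were taken at every time, but only 1 of pig 3 at 24 h. Pigs 1 and 3 are labelled male and pig 2 female, no age is given, and all groups share the same growth medium, so the unstimulated cells had also been exposed to CSF1.

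PLAC8, also called onzin, is a small cysteine-rich protein named after placenta. In mice it is made by myeloid and lymphoid cells, and animals without it kill ingested bacteria poorly. In humans it is abundant in plasmacytoid dendritic cells, the specialised producers of type I interferon. LPS acts on macrophages through TLR4. One arm of that pathway switches on early cytokine genes such as TNF through NF-kB, and another makes interferon beta, which acts back on the cells to switch on interferon-stimulated genes.

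The arrays went against their labels. EIF1AY, a Y-linked gene, had a level that contradicted the labelled sex on 8 of 23 arrays, and for 0 arrays was the labelled duplicate culture the most similar array. In 11 cases a pair of arrays had the highest correlation with one another, and every such pair stood in neighbouring columns of the deposited table (columns 1 and 2, 3 and 4, and so on to 21 and 22, with column 23 alone). An order of time, then pig, then culture has been inferred for the columns. It reads columns 1 to 6 as 0 h, 7 to 12 as 2 h, 13 to 18 as 7 h and 19 to 23 as 24 h, and the pairs within each run of columns as pigs 1, 2 and 3. Under that order EIF1AY would match the pig's sex on 23 of 23 arrays, but the order was chosen with these levels known and is not in the labels. The columns are therefore described below as runs, by their range and median, and every test keeps to the labels. Array medians lay between 69.2 and 73.4 intensity units.

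PLAC8 was lower on the first 12 arrays than on the last 11. In columns 1 to 6 its log2 intensity was 6.25, 7.26, 5.73, 5.52, 4.97 and 5.00. In columns 7 to 12 it was 7.44, 7.06, 7.57, 7.71, 5.55 and 5.76. The ranges of these first runs overlapped, and each run held both arrays under 6 and arrays above 7. In columns 13 to 18 the log2 intensity was 12.67, 12.57, 12.87, 12.94, 10.13 and 10.23. In columns 19 to 23 it was 13.21, 12.95, 13.96, 13.94 and 11.83. The last 2 runs overlapped each other too, but every array of columns 13 to 23 stood above every array of columns 1 to 12, with a gap of 2.42 between 10.13 and 7.71. Such a separation was found for 250 of 6765 genes, or 3.7%, and PLAC8 was chosen for its span, so nothing is read from it here.

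**Figure D1:**
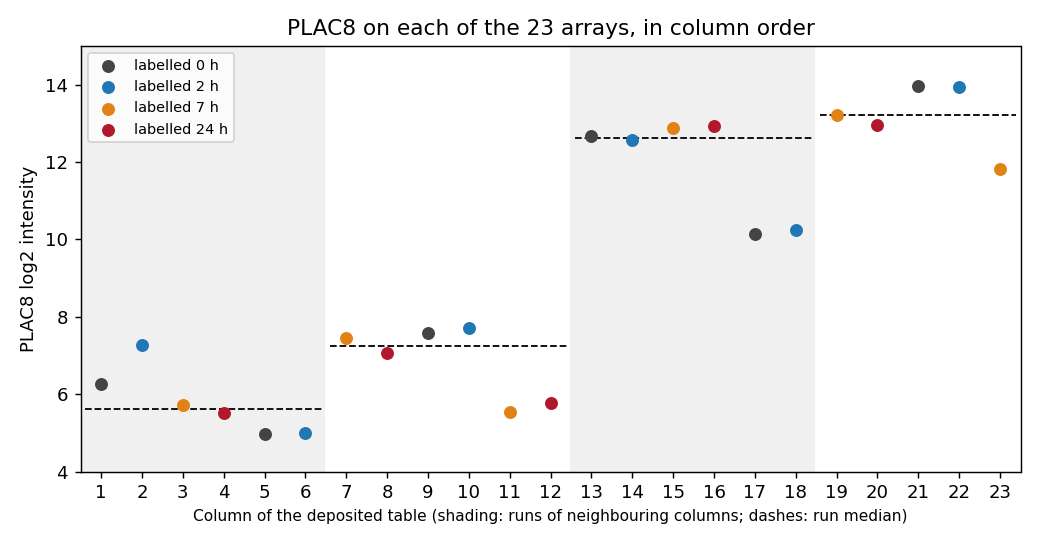
PLAC8 log2 intensity (vertical axis) on each of the 23 arrays, placed by their column in the deposited table (horizontal axis). Each point is 1 array, coloured by labelled time, shading separates the runs of columns and dashes mark run medians of 5.63, 7.25, 12.62 and 13.21. All 4 labelled times occur at both low and high levels.

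The run medians of PLAC8 were 5.63, 7.25, 12.62 and 13.21 on the log2 scale. The median differed by 1.62 between columns 7 to 12 and 1 to 6, by 5.37 between columns 13 to 18 and 7 to 12, and by 0.59 between columns 19 to 23 and 13 to 18. In linear units the lowest array had 31.3 (column 5) and the highest 15897 (column 21), a 507-fold difference. No detection call was part of the values used, so whether PLAC8 stood above background on the dimmest arrays is not known. On column 5, 33.5% of probe sets were dimmer still, and on column 10, the highest of the first 12 arrays, 69.2% were. On columns 1, 2 and 7 to 10 PLAC8 stood above the array's median probe set. On column 17, the lowest of the last 11 arrays, 90.9% of probe sets were dimmer, and on column 21, 99.8% were.

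Neighbouring columns gave a guide to the spread between very similar arrays. In the 11 pairs PLAC8 differed by a median of 0.14 log2 units, by 0.02 at the least (columns 21 and 22) and by 1.02 at the most (columns 1 and 2). The difference was under 0.3 in 9 of the pairs. Since the pairs hold the most alike arrays, such differences understate the spread. The range within a run was wider, at 2.29, 2.16, 2.81 and 2.13 in column order.

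The third pair of each run was its lowest. That pair (columns 5 and 6, 11 and 12, 17 and 18, and column 23 alone) had midpoints of 4.99, 5.65, 10.18 and 11.83. The first pair had midpoints of 6.75, 7.25, 12.62 and 13.08. The second pair had 5.63, 7.64, 12.90 and 13.95, and was the highest in every run but the first. In columns 1 to 6 the second and the third pair lay within 1 log2 unit of each other, less than the 1.02 between columns 1 and 2. Of the 897 genes that spanned at least 2 log2 units (13.3% of all genes), 80 had their lowest value in the third pair of all 4 runs, or 8.92%. The inferred order reads the third pairs as pig 3, a reading that was not tested.

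The step between columns 7 to 12 and 13 to 18 was present in every position. It was 5.37 for the first pairs (41.4-fold), 5.27 for the second (38.5-fold) and 4.52 for the third (23.0-fold). The step before it was smaller and less even, at 0.50, 2.01 and 0.67. That between columns 13 to 18 and 19 to 23 was 0.46, 1.04 and 1.65. Between the first and last runs the differences were 6.32, 8.32 and 6.84. Read with the inferred times, the largest step would lie between 2 and 7 h, and the level at 24 h would be above that at 7 h in all 3 positions, but the labels do not give those times.

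**Figure D2:**
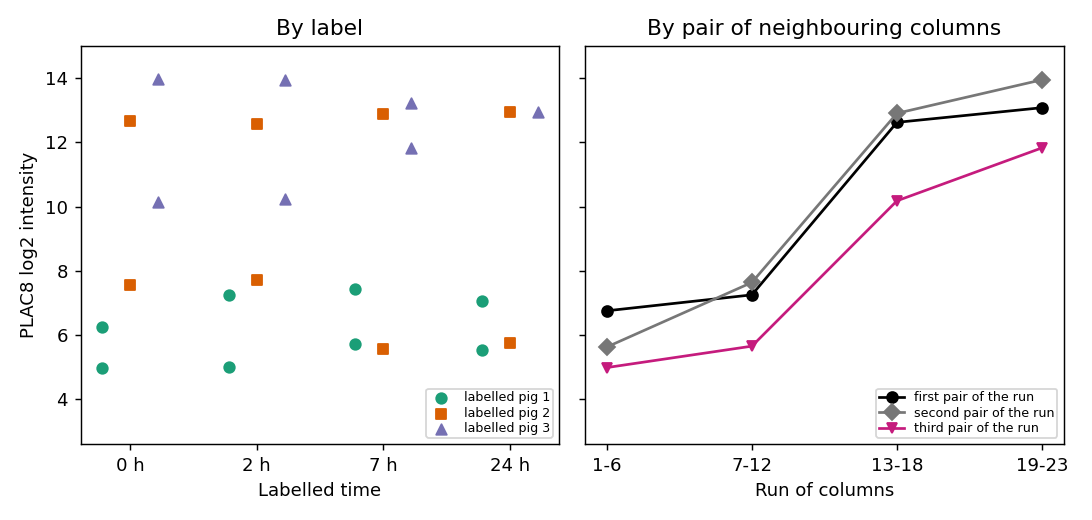
PLAC8 log2 intensity (vertical axis) by labelled time with labelled pig as symbol (left, 1 point per array), and as the midpoint of each pair of neighbouring columns by run of columns (right, 1 point per pair, column 23 being 1 array). The left panel shows the same wide range at every labelled time. On the right, all 3 lines climb by 4.52 to 5.37 between columns 7-12 and 13-18, with the third pair lowest in each run.

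By the labels, PLAC8 did not pass the test for any difference between times. At the labelled 0 h the 6 arrays ran from 4.97 to 13.96 (median 8.85), at 2 h from 5.00 to 13.94 (median 8.97), and at 7 h from 5.55 to 13.21 (median 9.63). The 5 arrays labelled 24 h ran from 5.52 to 12.95 (median 7.06). The 4 labelled times overlapped almost wholly, and each held arrays from every run of columns. Every array labelled 0 h was paired with a neighbouring, most similar array labelled 2 h. Every array labelled 24 h was paired in the same way with one labelled 7 h. The tests of labelled time therefore cannot show whether PLAC8 changed with time, and nothing is read from them here. With duplicate cultures averaged, the means over pigs were 9.26 ± 3.30, 9.45 ± 3.03, 9.44 ± 2.97 and 9.53 ± 3.33 log2 units at the labelled 0, 2, 7 and 24 h (SD, n = 3 labelled pigs).

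Differences between those means were far smaller than the spread. In limma with pig as a block, the labelled 2 h differed from 0 h by 0.19 ± 0.36 (SE, adjusted p = 1), a comparison in which 0.0125% of 23999 probe sets were called. The labelled 7 h differed from 0 h by 0.18 (adjusted p = 0.993, with 0% of probe sets called and 754 at an unadjusted p under 0.05). The labelled 24 h differed from 0 h by 0.27 (adjusted p = 0.917, 0.00417% called). Labelled 7 h against 2 h gave -0.01 (adjusted p = 0.999) and 24 h against 7 h gave 0.09 (adjusted p = 1), each with 0.00417% called. Over all labelled times the adjusted p was 1, with 0.00833% called. Without the 8 arrays against their labelled sex, 7 h against 0 h became 3.17 and 24 h against 0 h 3.21 (limma adjusted p = 0.914 and 0.712). In every labelled pig, the 7 and 24 h arrays then left stood in a later run of columns than the 0 and 2 h arrays. Labelled pig 2 kept 7.57 and 7.71 (columns 9 and 10) for 0 and 2 h. For 7 and 24 h it kept 12.87 and 12.94 (columns 15 and 16). Labelled time and run cannot be told apart there, so no effect of time is read from these values.

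Grouped by labelled pig, PLAC8 ran from 10.13 to 13.96 in labelled pig 3 (median 12.95, 7 arrays), from 5.55 to 12.94 in pig 2 (median 10.14, 8 arrays) and from 4.97 to 7.44 in pig 1 (median 5.99, 8 arrays). Labelled pig 3 lay wholly above pig 1, and pig 2 held arrays of both levels. In labelled pig 2 the level went with the run: its 4 arrays in columns 9 to 12 ran from 5.55 to 7.71 and its 4 arrays in columns 13 to 16 from 12.57 to 12.94. Labelled pig 3 had 10.13 and 10.23 in columns 17 and 18 and 11.83 to 13.96 in columns 19 to 23. In labelled pig 1 the runs overlapped, with 4.97 to 7.26 in columns 1 to 6 and 7.44 and 7.06 in columns 7 and 8. In columns 7 to 12 the arrays of labelled pig 1, at 7.06 and 7.44, lay within the range of those of pig 2. The limma F test over labelled pigs gave an adjusted p of 1.83e-05, with 36.2% of probe sets called. The pig labels are blocks of columns and PLAC8 was chosen for its span over the same columns, so nothing is read from that test.

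In rank of span PLAC8 came second of 6765 genes, at 8.99 log2 units. Above it was CXCL9, a chemokine induced by interferon gamma, with 9.75 (4.18 to 13.93). Below it came the B cell chemokine CXCL13 with 8.64, the drug-metabolising cytochrome CYP3A29 with 8.55 and TNFSF10, the death ligand TRAIL, with 8.16. The median gene spanned 0.96.

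Other genes followed the arrays in the same way as PLAC8. Likeness was measured as Pearson's r of log2 intensity over the 23 arrays, among genes spanning at least 2 log2 units. Of the 896 other genes of that span, 116 (12.9%) had an r of at least 0.8 and 74 (8.26%) an r of -0.8 or lower. The arrays share pairs and fall in 2 levels of PLAC8, so r is given as a description only and again within each level. SLC2A3, the glucose transporter GLUT3, was most like PLAC8 (r = 0.96 over 23 arrays, 0.83 within columns 1 to 12 and 0.86 within columns 13 to 23). Its run medians were 8.97, 9.57, 10.79 and 11.13. It ran from 8.06 to 9.29 in columns 1 to 6, from 9.19 to 9.64 in 7 to 12, from 10.33 to 10.85 in 13 to 18 and from 10.79 to 11.37 in 19 to 23. As with PLAC8, columns 13 to 23 lay wholly above columns 1 to 12, but over a span of 3.31 against 8.99 for PLAC8. PKIB, an inhibitor of protein kinase A, had r = 0.96, with run medians of 10.58, 10.82, 12.02 and 12.39. It kept r = 0.74 within columns 1 to 12 and 0.78 within columns 13 to 23. Both genes thus followed PLAC8 within each level as well as between them, but each level still holds 2 runs and the step between them. With each run's median taken off, a setting chosen after seeing the data, r was 0.64 for SLC2A3 and 0.43 for PKIB.

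The next of the 10 most similar genes mostly had a lower r inside the 2 levels. ENPP2, which makes the lipid mediator lysophosphatidic acid, had r = 0.95 over all arrays. Its r was 0.75 within columns 1 to 12 and 0.41 within columns 13 to 23. NECTIN2, a cell adhesion molecule, had r = 0.95 over all arrays, and 0.58 and 0.73 within the same levels. ABCB1, the drug efflux pump P-glycoprotein, had r = 0.95, with run medians of 6.00, 6.22, 8.80 and 9.46. Its other 2 probe sets disagreed, with r of 0.08 and 0.89. RETN, the secreted protein resistin, had r = 0.95 and run medians of 7.35, 8.44, 10.39 and 10.91. TMEM123, a membrane protein linked to cell death, had r = 0.94. Its r was 0.76 within columns 1 to 12 and 0.18 within columns 13 to 23.

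GLRX, the redox enzyme glutaredoxin, had r = 0.94 and one of the smallest spans of the 10, at 2.12. AOAH, the enzyme that deacylates and so inactivates LPS, had r = 0.94. Its r was only 0.20 within columns 1 to 12, and 0.56 within columns 13 to 23. Its run medians were 6.75, 7.72, 10.81 and 12.25, and its span of 6.66 was the nearest of the 10 to that of PLAC8. It ran from 6.27 to 7.86 in columns 1 to 12 and from 10.54 to 12.93 in columns 13 to 23. JADE2, a chromatin protein, had r = 0.94 and steps of -0.02, 1.63 and -0.03, a single step between columns 7 to 12 and 13 to 18.

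The genes most opposed to PLAC8 stepped down at the same place. SMS, which makes the polyamine spermine, had r = -0.97 and run medians of 10.36, 10.24, 9.07 and 9.06. Its highest array, 11.04, was in columns 1 to 6 and its lowest, 8.33, in columns 19 to 23. Within columns 1 to 12 its r was -0.81 and within columns 13 to 23 -0.72, so it opposed PLAC8 inside each level as well. With each run's median taken off, its r was -0.61. TAMM41, a mitochondrial enzyme of phospholipid synthesis, had r = -0.96, and NHP2, a protein of the small nucleolar ribonucleoproteins that modify ribosomal RNA, had r = -0.96. For NHP2 the other probe set gave -0.09, so its probe sets disagreed. CCNY, a cyclin, had r = -0.95, and TCFL5, a transcription factor, had r = -0.93, while its other probe set gave -0.38. Their steps between columns 7 to 12 and 13 to 18 were as large as -1.40 for TCFL5, -1.19 for NHP2 and -1.18 for SMS, against 5.37 for PLAC8.

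**Figure D3:**
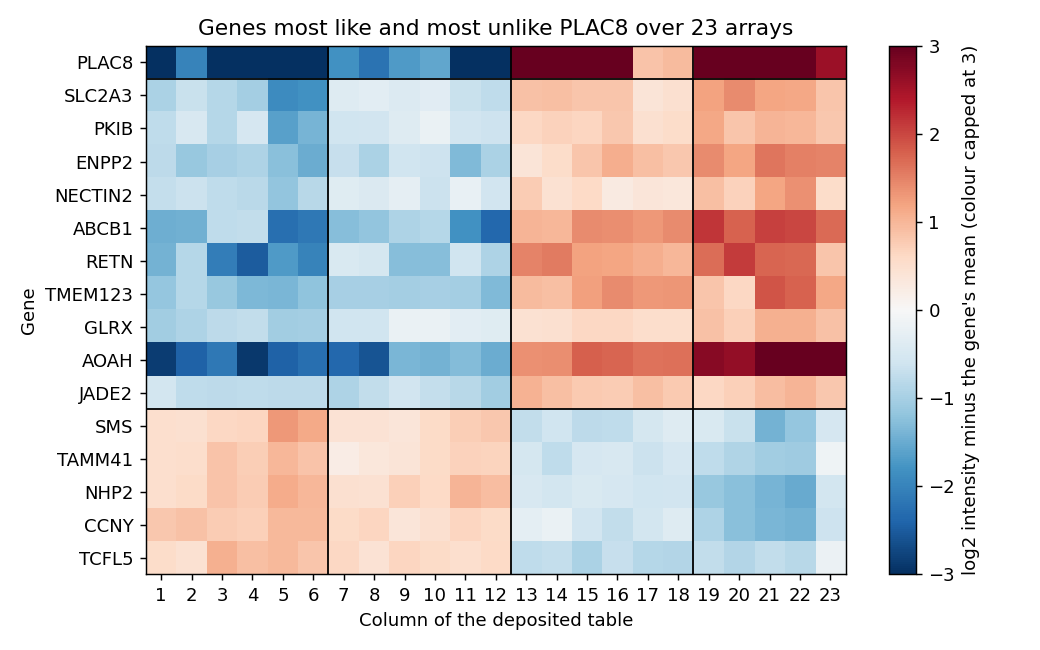
Log2 intensity minus the gene's own mean (colour, capped at 3) for PLAC8, the 10 genes of highest and the 5 of lowest r with it (rows) on the 23 arrays in column order (horizontal axis). Vertical lines part the runs of columns. The main change of colour falls between columns 12 and 13, where SMS, TAMM41, NHP2, CCNY and TCFL5 turn the other way.

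The largest step of PLAC8, upward between columns 7 to 12 and 13 to 18, was the most frequent one among genes of wide span. It was the largest step of 238 of 897 such genes (26.5%), while 172 had their largest step downward there (19.2%). A largest step upward between the first runs was found for 143 (15.9%) and between the last runs for 185 (20.6%). Run medians that rose at every step, as for PLAC8, were found for 133 genes (14.8%). PLAC8, SLC2A3, PKIB, the cholesterol exporter ABCA1, the vitamin B6 kinase PDXK and the sugar transporter family member SLC5A4 were the genes with a rise at every step, their largest step there and the third pair lowest in every run. These 6 were picked for this shape after it was seen in PLAC8.

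Of the 5 response lists, the interferon-stimulated genes had the highest median likeness to PLAC8. Of 36 listed, 18 had a named probe set. Of these, 7 had an r of at least 0.8 and 0 had an r of -0.8 or lower. Among all other genes 3.89% and 9.58% had such values, and among other genes spanning at least 2 log2 units 12.9% and 8.26%. The 18 genes had a median r of 0.77, against -0.05 for all genes, and 17 of 18 spanned at least 2 log2 units, against 13.3% of all genes. OAS1, an antiviral enzyme that senses double-stranded RNA, came nearest with r = 0.90 and run medians of 4.58, 7.99, 11.67 and 11.71. XAF1, a pro-apoptotic interferon target, had r = 0.89 and ISG20, an antiviral exonuclease, had r = 0.87. MX2, an antiviral GTPase, had the lowest r of the group, 0.49, with run medians of 6.67, 10.17, 10.49 and 8.99, and its other probe set gave -0.03.

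Inside the 2 levels the interferon-stimulated genes had lower r. Over the 18 genes the median r was 0.29 within columns 1 to 12 (-0.33 to 0.58) and -0.19 within columns 13 to 23 (-0.60 to 0.33). The 10 genes most like PLAC8, which were picked on all arrays together, had medians of 0.57 and 0.58. For OAS1 r was 0.58 within columns 1 to 12 and 0.33 within columns 13 to 23. For XAF1 the values were 0.10 and -0.07, and for ISG20 0.07 and -0.27. With each run's median taken off, a setting chosen after seeing the data, the 18 genes had a median r of -0.14 (-0.38 to 0.32), and the 10 most similar genes 0.36 (0.02 to 0.64). The list medians in the 4 runs were 7.85, 10.22, 11.87 and 11.69, with the larger step between the first runs, where PLAC8 had 1.62.

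The LPS-induced inflammatory genes showed a different order of runs. Of 20 listed, 16 were measured, all 16 spanned at least 2 log2 units and 2 had an r with PLAC8 of at least 0.8. Among all other genes of that span 12.9% had such an r, a share near that of the list. Their list medians were 7.78, 13.02, 12.82 and 11.25. CSF3, the granulocyte growth factor G-CSF, had r = 0.90 with run medians of 5.88, 6.75, 8.82 and 8.43. IL6, a cytokine of the acute phase, had r = 0.83, and 0.93 within columns 13 to 23. CCL5, a chemokine for T cells and monocytes, had r = 0.65, with run medians of 7.89, 12.94, 13.35 and 12.97. TNF, the early cytokine, had the lowest r, 0.17. Its run medians were 5.60, 12.50, 11.09 and 7.84, with its peak in columns 7 to 12, where PLAC8 was still low.

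**Figure D4:**
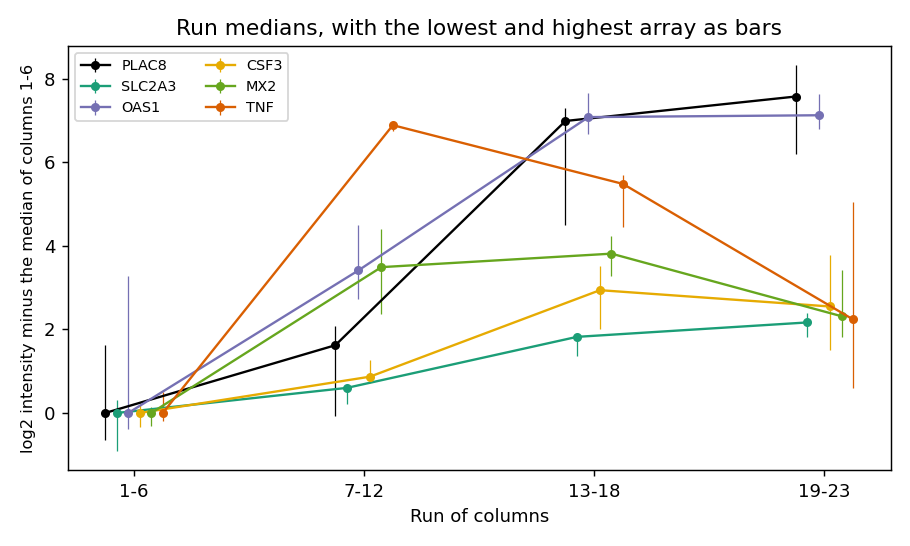
Run medians of log2 intensity minus the gene's median in columns 1-6 (vertical axis) by run of columns (horizontal axis) for PLAC8, SLC2A3, OAS1, CSF3, MX2 and TNF, with bars from the lowest to the highest array of the run. TNF stands highest in columns 7-12 and PLAC8 in columns 19-23. OAS1 lies near PLAC8 in columns 13-18 and above it in columns 7-12.

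Regulators of the interferon and LPS response had a lower median r. Of 16 measured of 20 listed, 0 had an r of at least 0.8 and 0 of -0.8 or lower, where 3.89% and 9.58% of all other genes did. The median r was 0.22. IRF3, the factor that switches on interferon beta, was highest at r = 0.68, followed by STAT3 at 0.67 and the kinase JAK1 at 0.58. IFNAR1, a chain of the type I interferon receptor, was lowest at -0.68. IFNB1, interferon beta itself, had r = 0.19, with run medians of 3.53, 8.48, 6.29 and 4.03, high in columns 7 to 12 as TNF was.

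Genes for phagocyte killing, a process that depends on Plac8 in mice, had a median r between those of the inflammatory genes and the regulators. Of 18 listed, 11 were measured and 0 had an r of at least 0.8, where 3.89% of all other genes did. The median r was 0.50, against 0.57 for the inflammatory genes. S100A9, an antimicrobial calcium-binding protein, was highest at 0.75, with run medians of 10.39, 10.52, 10.92 and 13.62, so that it stepped up in the last run only. CYBA, a subunit of the NADPH oxidase, had r = 0.68 over a span of 0.55. LTF, lactoferrin, had 0.61 and run medians of 5.05, 5.03, 5.37 and 7.65. RAC2, a GTPase of the oxidase, was lowest at -0.69, and its other probe set gave -0.29.

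Genes tied to PLAC8 in mouse or human cells of other kinds had spans near those of all genes. Of 16 listed, 12 were measured and 2 spanned at least 2 log2 units, where 13.3% of all genes did, and the median span was 1.02, against 0.96 for all genes. With PLAC8, 1 had an r of at least 0.8, where 3.89% of other genes did. That one was CEBPB, a transcription factor downstream of Plac8 in mouse fat cells, with r = 0.88 and run medians of 11.54, 12.57, 13.01 and 13.33. LAMP2, a lysosomal membrane protein, had 0.78 and ATG12, an autophagy conjugate, 0.67. The other probe sets of LAMP2 gave 0.58 to 0.89 and those of ATG12 -0.30 to 0.67, so for ATG12 they disagreed in sign. RAB7A, a GTPase of late endosomes, was lowest at -0.70. MYC, which represses Plac8 in mouse cells, had r = -0.42. Its run medians were 9.80, 7.23, 7.20 and 8.15, so it was high only in columns 1 to 6. The other genes of the PLAC8 family were named with no value, since of the 5 listed (PLAC8, PLAC8A, PLAC8B, PLAC8L1 and CNFN) only PLAC8 had a named probe set.

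Of the genes that flank PLAC8 in the RefSeq gene order, looked at for their position alone, none had a similar pattern. On one side LOC100524999, the next gene, had r = 0.27, and HPSE, heparanase, the third gene away, had -0.20. On the other side COPS4, a subunit of the COP9 signalosome, had -0.60. COQ2, LIN54 and THAP9, also within 3 genes of it, had no value here.

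Markers of other blood cells were set beside PLAC8, because lymphocytes and dendritic cells also make it. In bulk cultures, fewer cells of a type and less RNA per cell cannot be told apart. Of 10 measured T and NK cell markers of 12 listed, 1 had an r of at least 0.8, where 3.89% of all other genes did. This was IL7R, the receptor for interleukin 7 (r = 0.82, run medians 5.14, 7.26, 10.16 and 10.16). CD2, an adhesion molecule of T cells, had 0.74. The summed intensity of the list ran from 254 to 312 in columns 1 to 6, from 362 to 691 in 7 to 12, from 1415 to 2662 in 13 to 18 and from 720 to 3247 in 19 to 23. The higher sums came with IL7R and CD2, the 2 of the 10 that spanned at least 2 log2 units, where 13.3% of all genes did. The T cell receptor parts CD3D, CD3E and CD3G did not follow the sum, with spans of 0.70, 0.78 and 0.66 and mean levels of 5.98, 4.53 and 4.47. CD4, CD8A, CD8B, KLRK1 and LCK had spans of 0.74, 0.98, 0.56, 0.80 and 0.52. The part of T or NK cells in the PLAC8 result was not tested.

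Markers of the other cell types differed in how far they moved. Of 3 plasmacytoid dendritic cell markers measured of 7, 0 spanned 2 log2 units, where 13.3% of all genes did. The summed intensity of the 3 stayed between 135 and 188 over all arrays. Of 2 conventional dendritic cell markers measured of 6, CCR7, a chemokine receptor that activated cells also make, had r = 0.81. The sum of these 2 ran from 160 to 185 in columns 1 to 6 and from 225 to 288 in columns 13 to 18. In columns 19 to 23 it ran from 214 to 391. Of 4 granulocyte markers measured of 8, 4 spanned at least 2 log2 units, where 13.3% of all genes did. An r of at least 0.8 was found for 0 of the 4, and for 3.89% of all other genes. The sum of the 4 was 1667 to 5259 in columns 1 to 6, 2590 to 6958 in columns 13 to 18 and 12838 to 15881 in columns 19 to 23. The higher sum in the last run came with S100A9, at 13.56 to 13.73 log2 units there, while PRTN3, a protease of granulocyte precursors, had its lowest run median there, 7.70, against 9.34 in columns 1 to 6. ELANE, neutrophil elastase and the defining precursor marker, had r = -0.67 and its lowest run median, 5.74, in columns 19 to 23.

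Of 10 macrophage markers listed, 7 were measured, with a median r of 0.32 and 0 at 0.8 or more, where 3.89% of all other genes were. The summed intensity of the 7 ran from 7783 to 9368 in columns 1 to 6 and from 11262 to 12942 in columns 19 to 23. AIF1 was the brightest of them, with run medians of 12.71 and 13.14 there. CD14, CD163 and FCGR1A also had higher medians in columns 19 to 23, but MRC1 had a lower median, 7.33 against 7.58. MARCO and ITGAM spanned only 0.57 and 0.64, and ITGAM was the 1 marker with a mean log2 level under 5. FCGR1A, a high-affinity antibody receptor, was the highest at 0.68, followed by AIF1 at 0.64 and CD14, the LPS co-receptor, at 0.63. MRC1, the mannose receptor, was the lowest at 0.03. Epithelial, stromal and B cell lists had median r of 0.05, -0.01 and -0.37. None of their members had an r of 0.8 or more, or of -0.8 or lower, over all arrays. EPCAM (epithelial, r = -0.60) and JCHAIN (B cell, r = -0.65) were the only members of these 2 lists to span at least 2 log2 units. Within columns 1 to 12 EPCAM had -0.72 and JCHAIN -0.83, and within columns 13 to 23 -0.93 and -0.73. Of the 5 stromal markers measured, 3 spanned at least 2 log2 units, where 13.3% of all genes did. The part of these cell types in the PLAC8 result was not tested.

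**Figure D5:**
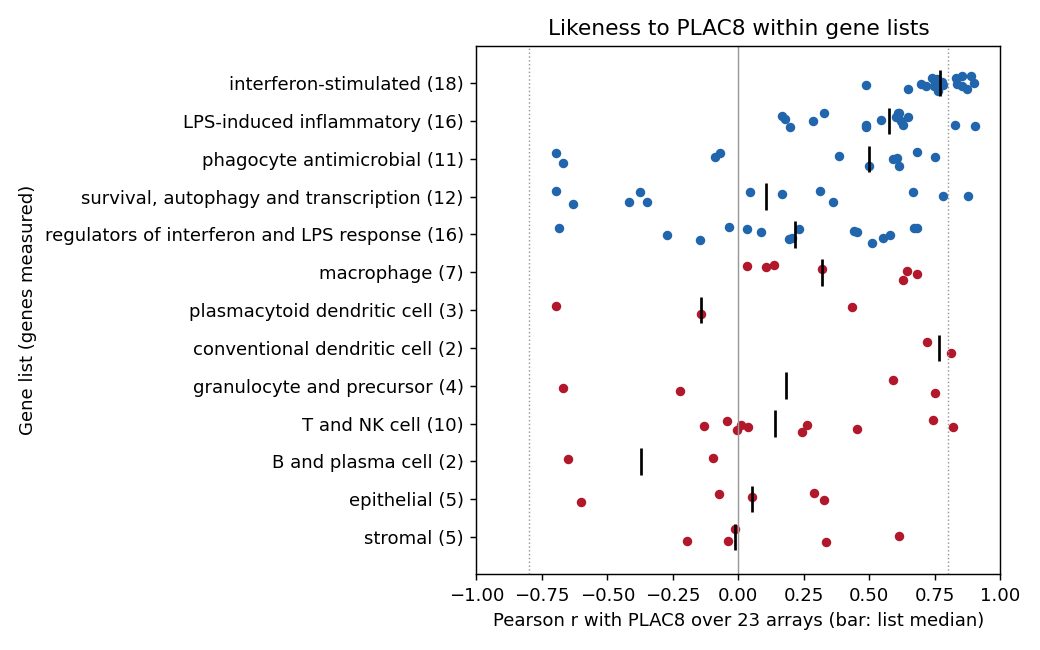
Pearson's r with PLAC8 over 23 arrays (horizontal axis) for each measured gene of each list (vertical axis, with the number measured). Points are genes, black bars list medians, blue marks response lists and red marks cell type markers, and dotted lines stand at 0.8 and -0.8. Interferon-stimulated genes have the highest median of the response lists, 0.77, and the pair of conventional dendritic cell markers an equally high one from 2 genes.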

How the data were processed

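RNA from 23 cultures was labelled with biotin and hybridized to Affymetrix porcine arrays. The authors deposited 1 linear intensity per probe set and array. Per the submitters' processing notes they used affy and RMA, whose versions are not stated in the sources used here. RMA corrects background and equalises arrays, and is known to compress differences of dim probe sets. Precision is limited by the number of pigs, 3, since duplicate cultures of a pig are not separate animals.

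Values were turned to log2. Of 24123 probe sets, 124 controls were left out, which left 23999. Of these, 10069 had 1 gene in the platform annotation, 198 several and 13732 none. Symbols were updated through RefSeq (Sscrofa11.1), and the probe set of highest mean stood for a gene. RefSeq gene positions were used only to find the genes that flank PLAC8, and no sequences were used.

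Tests used limma 3.58.1 in R 4.3.3 on 12 pig-by-time means as labelled, with time and pig as terms and Benjamini-Hochberg adjustment over all probe sets (threshold 0.05, 6 residual degrees of freedom). They were tested on simulated data. The pairing comes from the series description, by which the same pigs supplied every time. As a check, same-numbered pigs' deviations from the time means had correlations of 0.27 to 0.97. Each pig label covers a block of neighbouring, most similar columns, so these correlations do not show that the numbers pair the samples. The p-values rest on the spread left after the time and pig terms, and cover cultures of these 3 labelled pigs only.

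Genes were named by rule: the 10 highest and 5 lowest r with PLAC8 among genes spanning at least 2 log2 units, up to 3 genes above and 3 below it in rank of span, and the 3 highest and the lowest r of each list. TNF, IFNB1, MYC, ELANE, CD14 and the CD3 genes were added, where outside the rule, after their values were seen. PLAC8, the lists and the column order were chosen with earlier results of these data known. Alternatives covered the pig block, the use of cultures, normalization, dim probe sets, each pig, the arrays against their labelled sex and the measure of likeness.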

Additional observations from a re-analysis of the deposited data

How the results depend on the processing

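Under 10 alternatives for each of the 6 tests of labelled time, 60 values in all, PLAC8 was called in 0 by limma, with a lowest adjusted p of 0.712. The replicate block made no difference to any PLAC8 call: without it the differences were the same, 0.19 for 2 h against 0 h among them. The SE of that difference did depend on it, at 0.36 with the block and 2.33 without. With all 23 arrays fitted singly the SE was 1.14. Several near-zero differences turned sign. The labelled 24 h against 7 h was -0.026 with all 23 arrays fitted singly (each pig and time a random block) and -0.084 with first cultures only. With duplicate cultures only, 2 h against 0 h was -0.029 and 7 h against 2 h was 0.21. Labelled 7 h against 2 h was 0.000856 after quantile normalization and 2.92 without the arrays against their labelled sex. In that last setting the labelled times of each pig stood in different runs of columns. Leaving out each labelled pig gave 0.03 to 0.28 for 2 h against 0 h, -0.22 to 0.72 for 7 h against 0 h, -0.044 to 0.79 for 24 h against 0 h, -0.25 to 0.44 for 7 h against 2 h and -0.076 to 0.29 for 24 h against 7 h. The cause was not tested. The test over labelled pigs was passed in all 9 of its alternatives, with adjusted p from 2.01e-05 to 0.0169, from which nothing is read for PLAC8, while the probe sets called ran from 2069 (without pig 1) to 11768, against 8677. Counts for labelled times ran from 0 to 34 (limma), against 0 to 3. Of 896 other genes of wide span, 116 had an r with PLAC8 of at least 0.8. By Spearman's rho there were 61, with 6 of the 10 most similar genes shared. Chosen after seeing the data, taking each run's median off left 15, columns 1 to 12 only gave 10 and columns 13 to 23 only gave 31, with 0, 1 and 0 of the 10 shared, so the count and the ranking depend on the steps between runs. Averaging pairs to 12 units (118 genes) and quantile normalization (118) each shared 9 of the 10.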
